A study of Mus musculus with 6 samples.

Results

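The genes described here encode the proteins of the cytosolic ribosome. They were taken as the rows whose symbol is Rpl or Rps followed by a number, with or without the endings a, x, l, l1 or l2, together with Rplp0, Rplp1, Rplp2 and Rpsa. Names marked as pseudogenes by -ps were left out, and a mean normalized count of at least 50 over the 6 libraries was required. Of 52550 gene rows, 85 symbols matched and 82 met the minimum, of which 49 encode large subunit and 33 small subunit proteins or their close copies. The lowest gene inside the minimum was Rps12l1, with a mean of 57.7, and the highest outside it was Rpl3l, with a mean of 4.75. The libraries hold mRNA of plasmacytoid dendritic cells from the spleen of C57BL/6 mice. Both groups were stimulated for 12 hours with R837, the TLR7 agonist also called imiquimod. The 3 libraries of the first group had R837 alone and the 3 of the second had R837 together with taurine, a sulfur-containing amino acid derivative. Doses, the sort that gave the cells, and whether replicates came from separate mice or cultures are not stated, so p-values measure only the spread between these libraries. Libraries without R837 were not analysed here, and values are given as R837 with taurine against R837 alone.

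A ribosome joins a small subunit, which reads the mRNA, to a large subunit, which forms peptide bonds. Most proteins of a subunit are present in a single copy. Ribosomal protein mRNAs are among the most abundant of a cell, and most start with a short pyrimidine run, the 5' terminal oligopyrimidine (TOP) motif, through which mTOR and LARP1 control their translation and stability. Plasmacytoid dendritic cells are specialised secretory cells that answer TLR7 ligands with large amounts of type I interferon.

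The start regions of 7 of these genes show the pyrimidine runs as they lie in the genome. They are given because Rpl28, Rpl38, Rpl35, Rps6 and Rps27 hold a run that was searched for, whereas Rpl24, the called gene with the largest change, and Rpl7l1, the gene with the lowest, hold none. Each line gives 25 bases before and 25 from the RefSeq start (GRCm38.p6), 5' to 3' on the transcript strand. Capitals mark CTCTTT or CTTTCC and, on either strand, the letters CCGGAAG, the core bound by ETS family factors. CTCTTT and CTTTCC share bases in Rpl28 and Rpl35.
Rpl28: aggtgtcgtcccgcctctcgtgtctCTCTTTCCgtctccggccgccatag
Rpl38: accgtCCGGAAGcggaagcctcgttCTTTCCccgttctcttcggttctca
Rpl35: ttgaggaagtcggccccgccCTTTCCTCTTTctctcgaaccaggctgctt
Rps6: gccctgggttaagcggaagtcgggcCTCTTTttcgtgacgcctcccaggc
Rps27: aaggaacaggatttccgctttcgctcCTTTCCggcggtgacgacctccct
Rpl24: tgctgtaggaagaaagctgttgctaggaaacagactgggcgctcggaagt
Rpl7l1: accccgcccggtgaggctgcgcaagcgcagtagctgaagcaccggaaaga
On the plus strand these lie at chr7:4792940-4792989 for Rpl28, chr11:114668555-114668604 for Rpl38 and chr16:55966250-55966299 for Rpl24. On the minus strand they lie at chr2:39005107-39005156 for Rpl35, chr4:86857343-86857392 for Rps6, chr3:90213624-90213673 for Rps27 and chr17:46782632-46782681 for Rpl7l1.

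Libraries held 33585080 to 38392654 reads on genes, and between 18739 and 19003 genes had at least 1 read. All 15 markers of plasmacytoid dendritic cells on the list used were measured, and their summed normalized count was 422620 to 460580 with R837 and 458510 to 474350 with taurine. Siglech, a surface receptor of these cells, had 11770 ± 1434 (SD, n = 3) with R837 and 11361 ± 889 with taurine. Of the 15, 3 were higher with taurine (Irf7, Bst2 and Cox6a2, by 0.65, 0.38 and 0.55 on the log2 scale) and 4 were lower (Runx2, Tcf4, Pacsin1 and Klk1, at -0.60, -0.51, -0.38 and -0.35). Over all 15265 genes tested, 573 were higher with taurine and 406 were lower (limma, Benjamini-Hochberg adjusted p under 0.05), and the median log2 change was -0.011.

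Ribosomal protein mRNAs were higher in the cells given taurine, by 25.9% in sum, across nearly the whole set. Together the 82 genes took 2.83%, 2.81% and 2.90% of the normalized counts in the R837 libraries and 3.30%, 3.37% and 3.73% in the libraries with taurine. Each library with taurine lay above each library without it. The mean share was 2.85% ± 0.0487 (SD, n = 3) with R837 and 3.47% ± 0.230 with taurine, a rise of 21.8%. The 25.9% is the rise of the mean summed normalized count. It is larger because the normalized total of all genes was also higher in each library with taurine. Of the 82 genes, 57 were higher with taurine, 0 were lower and 25 did not pass the test, against 3.75% of all tested genes that were higher and 2.66% that were lower. The 57 made up 9.95% of all higher genes, while the 82 are 0.537% of the genes tested. At an unadjusted p under 0.05, 72 of the 82 passed, as did 3622 of all 15265 tested genes. The quasi-likelihood test of edgeR on the recovered reads called the same 57 and none lower, with 3.74% of all its genes higher.

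The changes of the single genes lay close together. The median log2 change was 0.35, with quartiles of 0.27 and 0.43, and the 57 called genes lay between 0.27 and 0.67, or 20.4% to 58.5% higher on the means. For 72 genes all 3 libraries with taurine lay above all 3 with R837 alone, against 14.6% of tested genes, and for 0 genes all lay below, against 15% of tested genes. The change was above 0 for 81 genes, against 48.6% of tested genes, and Rpl7l1 was the exception. A log2 change of 1 was reached by 0 genes and a log2 change of 0.5 by 7, among them Rpl24, Rplp1, Rpl6l, Rps4l, Rps12l1 and Rpl36. Rpl36 was named after its value was seen. Rpl6l, Rps4l and Rps12l1 are annotated as pseudogenes and did not pass the test. Rps12l1, with means of 47.3 with R837 and 68.2 with taurine, met the minimum of 50 only through the libraries with taurine. The counts of 81 and 7 include it, and its rise is no support for them. In bulk RNA, fewer cells of a type and less RNA per cell cannot be told apart.

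**Figure D1:**
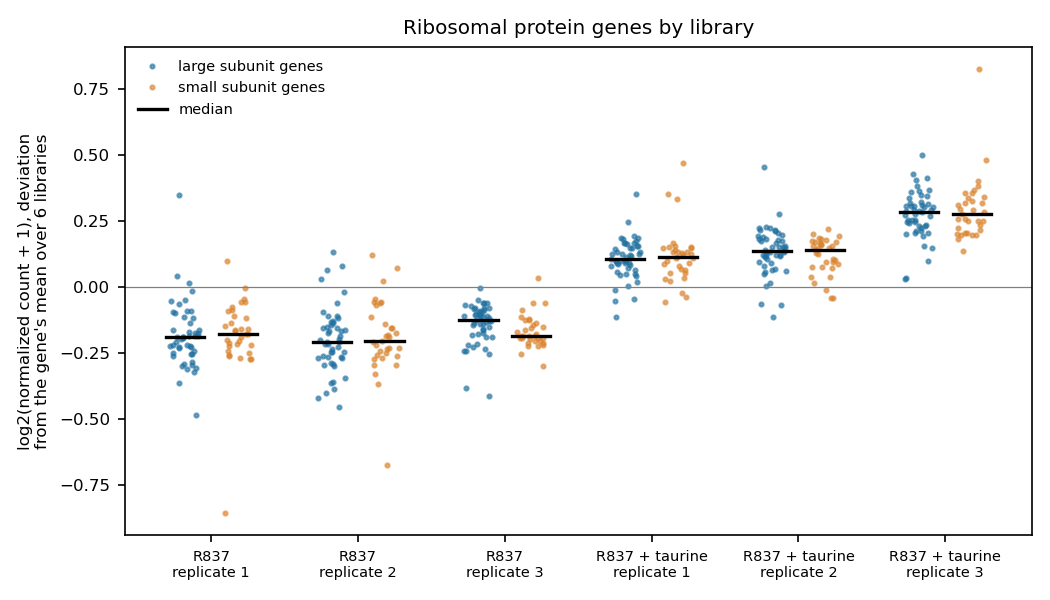
The plot of deviations by library shows, for each of the 6 libraries, the log2(normalized count + 1) of every ribosomal protein gene minus that gene's mean over the libraries, with 1 point per gene, large subunit in blue, small subunit in orange and the median as a bar. The medians over both subunits lie at -0.19, -0.21 and -0.14 with R837 and at 0.11, 0.14 and 0.28 with taurine.

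Libraries were not alike within the taurine group. Taurine replicate 3 held the highest value of 76 of the 82 genes, and the lowest values were spread over R837 replicates 1, 2 and 3 with 23, 37 and 21 genes. Without taurine replicate 3 the number of called genes was 5, against 0.662% of all tested genes higher. Without taurine replicate 1 it was 23 (1.35% of all tested genes) and without taurine replicate 2 it was 8 (1.01%). Leaving out R837 replicate 1, 2 or 3 gave 16, 2 and 54, with 1.47%, 0.662% and 5.02% of all tested genes higher. The median log2 change stayed between 0.30 and 0.39 in those 6 fits, and 81 genes had a change above 0 in each of them. In all 6 fits 2 genes were called, Rpl24 among them, and 54 genes were called in at least 1. With the 50 genes of highest level kept out of the library totals, the whole table split into 462 higher (3.03%) and 586 lower. With the ribosomal protein reads kept out it split into 448 (2.93%) and 616. Under these scalings 41 and 40 of the 82 genes were higher. The 82 genes still had a median of 0.31 in the second case, with -0.05 over all tested genes.

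Markers of other cells summed to less than those of plasmacytoid dendritic cells, and some sums differed between the groups without overlap. Erythroid markers summed to 1553 to 1722 with R837 and 1960 to 2410 with taurine (1 of 6 tested genes higher, Hba-a1). Most of that sum came from 1 gene, Car2, which had 1518 ± 110.4 and 2013 ± 194 and did not pass (adjusted p = 0.0574), while Hba-a1 had 34.4 ± 7.28 and 87.8 ± 19.1. Neutrophil markers summed to 1173 to 1711 and 1722 to 2086 (1 of 7 higher), and monocyte and macrophage markers to 12489 to 13797 and 13445 to 16213 (0 of 8 called by limma or edgeR, 3 with an unadjusted p under 0.05). Conventional dendritic cell markers summed to 34677 to 36740 with R837 and 28959 to 30723 with taurine (2 of 8 lower). B cell markers ranged from 1735 to 2812 and from 1870 to 2603. Plasma cell markers ranged from 1310.5 to 1411 and from 1111 to 1395, T cell markers from 653 to 746 and from 537 to 646, and NK cell markers from 52.1 to 79.3 and from 29.7 to 50.4. Over all 15265 tested genes 3.75% were higher, 2.66% were lower and 3622 had an unadjusted p under 0.05. In these marker lists Tnfrsf17, Cd3d, Cd3g, Trbc1, Gzma and Prf1 were at 0 in every library. The part of these other cells in the ribosomal protein result was not tested.

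The stalk of the large subunit, where elongation factors bind, is built from the phosphoproteins P0, P1 and P2, and all 3 mRNAs rose. Rplp0 (ENSMUSG00000067274.10, mm10 chr5:115559467-115563727, plus strand), the stalk base P0, had normalized counts of 54656, 53755 and 55511 in the R837 libraries and 67235, 67495 and 73567 in those with taurine. The groups did not overlap, and the log2 change was 0.34 ± 0.0554 (SE), with an adjusted p of 0.0132 by limma. Rplp1 (P1) had 9837, 9675 and 11381 with R837 and 13966, 14351 and 15764 with taurine. Here too every library with taurine was higher, and the log2 change was 0.51 ± 0.0832 (adjusted p = 0.0132). Rplp2 (P2) went from 9389.9 ± 755 to 12317 ± 760.4, a log2 change of 0.39 (adjusted p = 0.0269). Exons of Rplp2 overlap those of Snora52, and since the strand setting of the counting is not known, reads of overlapping genes cannot be told apart.

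Rpl24, a surface protein of the large subunit, had the largest change among called genes. Rpl24 (ENSMUSG00000098274.7, mm10 chr16:55966275-55971435, plus strand) carries a bridge between the subunits. It had 7719.6, 6657 and 6598 with R837 and 11237, 10294 and 11716 with taurine. All libraries with taurine lay above those without, and the log2 change was 0.67 ± 0.0853 (adjusted p = 0.00675). Its exons overlap the predicted gene Gm28037, so its reads are uncertain.

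Other large subunit genes rose by 0.40 to 0.44 on the log2 scale. Rpl8, a protein near the peptidyl transferase centre, had 19214, 18210 and 19867 with R837 and 24268, 24767 and 26432 with taurine. Its groups did not overlap, its exons overlap no other gene, and the log2 change was 0.40 ± 0.0627 (adjusted p = 0.0129). Rpl12, a protein at the stalk base, went from 8163 ± 124 to 10990 ± 494 (log2 change 0.43 ± 0.0636, adjusted p = 0.0112). Rpl6 went from 16165 ± 385 to 21764 ± 1374 and Rpl35, a protein at the exit of the nascent chain tunnel, from 10378 ± 383 to 14131 ± 803. Both had an adjusted p of 0.012, and their groups did not overlap. Rpl19, among the most abundant per kilobase, rose by 0.41 on the log2 scale, from 20070 ± 1113 to 26630 ± 2033 (adjusted p = 0.0188). Exons of Rpl12, Rpl6, Rpl35 and Rpl19 each overlap at least 1 other gene.

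Rpl5 and Rpl11 join 5S rRNA in a particle that can bind the p53 regulator MDM2 when assembly fails. Rpl5 had 18689, 18795 and 17956 with R837 and 21698, 21226 and 23900 with taurine, and Rpl11 had 8402, 8343 and 8954 and 10318, 10491 and 11786. Neither pair of groups overlapped, and the log2 changes were 0.27 ± 0.0648 (adjusted p = 0.0464) and 0.34 ± 0.074 (adjusted p = 0.0334). Rpl13a, which takes part in the interferon-gamma induced silencing complex GAIT, had 24122, 23259 and 26504 in the R837 libraries and 30604, 32596 and 36342 in those with taurine. The lowest library with taurine lay above the highest without, with a log2 change of 0.43 ± 0.0798 (adjusted p = 0.0204). Rpl3, which reaches into the peptidyl transferase centre, rose by 0.27 (adjusted p = 0.0376), and Rpl10, one of the last proteins to join the subunit, by 0.30 (adjusted p = 0.0439). Rows marked -ps for Rpl10 held 23.1% of its level, so its reads may be split with those copies. Exons of Rpl5, Rpl13a, Rpl3 and Rpl10 each overlap at least 1 other gene.

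Of the 49 large subunit genes 13 did not pass the test. Rpl7 had 26071, 26330 and 22142 with R837 and 23860, 27267 and 29697 with taurine. R837 replicate 3 was low and the other values of the groups overlapped, with a log2 change of 0.12 ± 0.0972 (adjusted p = 0.519). Rpl39, a small protein lining the exit tunnel, had 4151, 4379.9 and 3562 and 4641, 4011 and 4486, and its groups overlapped as well (log2 change 0.12 ± 0.0994, adjusted p = 0.502). Rpl29, described after its values were seen, had 12796, 7504 and 8502 with R837 and 10345, 9594 and 12688 with taurine. R837 replicate 1 stood apart from the other R837 libraries, and the log2 change was 0.21 ± 0.186 (adjusted p = 0.545).

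**Figure D2:**
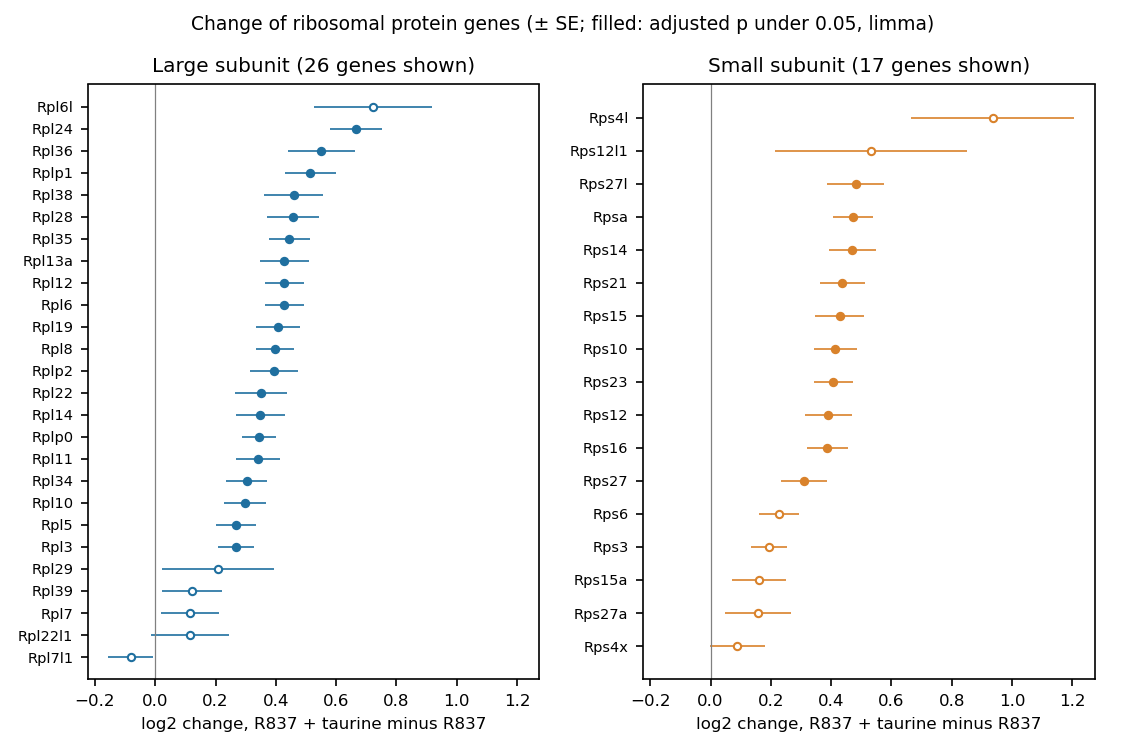
The plot of changes by gene gives the log2 change (R837 with taurine minus R837) of the 43 genes named among the results, 26 of the large and 17 of the small subunit, with the standard error as a line. Filled points are the 30 with an adjusted p under 0.05 and open points the 13 without, and Rpl7l1 is the only point below 0.

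Among small subunit genes Rpsa had the smallest p. Rpsa (ENSMUSG00000032518.6, mm10 chr9:120127689-120132369, plus strand) encodes the small subunit protein uS2, also known as the laminin receptor. It had normalized counts of 31072, 31353 and 32945 with R837 and 41732, 42894 and 47981 with taurine, and its exons overlap Gm24044. The groups lay far apart, with a log2 change of 0.47 ± 0.0666 (adjusted p = 0.00905). Rps14, a platform protein, had 15020, 13759 and 15290 and 19228, 19605 and 22304. All libraries with taurine were higher, and the log2 change was 0.47 ± 0.077 (adjusted p = 0.0136). Rps23, which sits at the decoding centre, had 13004, 13150 and 13328 against 16531, 17242 and 18624. Its R837 libraries differed little from each other, and the log2 change was 0.41 ± 0.0644 (adjusted p = 0.0129).

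Other small subunit genes rose by similar amounts. Rps21 went from 3241 ± 54.7 to 4392 ± 206 (SD, n = 3), a log2 change of 0.44 (adjusted p = 0.0145). Rps16, near the tRNA in the P site, went from 13089 ± 365 to 17139 ± 1100 (log2 change 0.39, adjusted p = 0.0159), and -ps rows held 10.5% of its level. Rps10, a head protein, went from 8874 ± 160.3 to 11840 ± 868 (log2 change 0.41, adjusted p = 0.0156), and its exons overlap other genes. Rps15, whose C-terminal tail reaches the decoding site, had 14013, 13686 and 15828 with R837 and 18374, 18931 and 21250 with taurine. Its groups did not overlap (log2 change 0.43 ± 0.0817, adjusted p = 0.0219).

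Rps6, the phosphorylation target of S6 kinase downstream of mTOR, had 33789, 34501 and 31488 with R837 and 38359, 36974 and 41519 with taurine. Every library with taurine was above every one without, but the log2 change of 0.23 ± 0.0652 missed the threshold (adjusted p = 0.0734). After removal of length and GC trends it was 0.094 (adjusted p = 0.524). Rps4x had 28657, 30228 and 24916 and 27625, 28502 and 32994, with overlapping groups and a log2 change of 0.089 ± 0.0924 (adjusted p = 0.61). Its sign turned under quantile normalization. Rps15a had a log2 change of 0.16 ± 0.0907 (adjusted p = 0.325), and its groups overlapped.

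A few ribosomal proteins are made as fusions with ubiquitin or a ubiquitin-like protein that is cut off afterwards. Rps27a, a ubiquitin fusion, had 9819, 11767 and 9252 with R837 and 10962, 10499 and 12866 with taurine. R837 replicate 2 was the second highest of the 6 libraries, and the log2 change was 0.16 ± 0.109 (adjusted p = 0.425). Fau, the fusion with a small subunit protein, rose from 12168 ± 1174 to 17239 ± 1168 (log2 change 0.50 ± 0.085, adjusted p = 0.0147). The difference in change between Rps27a and Fau was not tested. Of 7 tested genes for ribosomal proteins named otherwise 2 were higher, Fau among them, against 3.75% of all tested genes. Their median log2 change was 0.26. Rack1, the scaffold for kinase signalling on the small subunit, had a log2 change of 0.24 ± 0.0627 (adjusted p = 0.059).

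Several ribosomal protein genes have a second copy or a relative of similar name, whose level was set against that of the first gene in each library. Rpl22l1 stood at 31.7, 36.5 and 32.5% of the normalized count of Rpl22 in the R837 libraries and at 29.8, 27.3 and 28.4% with taurine. The groups did not overlap, and the mean share was 33.6% ± 2.53 with R837 and 28.5% ± 1.26 with taurine (SD, n = 3). With 3 libraries against 3 an exact permutation test cannot give a p below 0.1. Rpl22 itself, an RNA-binding protein needed for T cell development, had 1780.4, 2027 and 2004 and 2481, 2478 and 2436. It rose by 0.35 ± 0.0858 on the log2 scale (adjusted p = 0.0477). Rpl22l1 had 565, 739 and 652 and 739, 676 and 691. Its groups overlapped, with a log2 change of 0.11 ± 0.129 (adjusted p = 0.645).

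Rpl7l1 (ENSMUSG00000063888.6, mm10 chr17:46773907-46782656, minus strand), a relative of Rpl7, was the 1 gene of the 82 with a change below 0. Its normalized counts were 4445, 4567 and 4310.3 with R837 and 4186, 3995 and 4413 with taurine. The groups overlapped, and the log2 change was -0.082 ± 0.0734 (adjusted p = 0.547). Rpl7l1 stood at 18.0% ± 1.32 of Rpl7 with R837 and 15.7% ± 1.61 with taurine. Rps27l, a p53 target, had 1838, 1652 and 1928 with R837 and 2688, 2452 and 2418 with taurine. It was higher in each library with taurine (log2 change 0.48 ± 0.0937, adjusted p = 0.0235). Rps27, its partner, rose by 0.31 ± 0.0762 (adjusted p = 0.0476), a call that was lost after removal of length and GC trends (adjusted p = 0.222). The share of Rps27l in Rps27 was 18.1% ± 2.54 with R837 and 20.3% ± 1.88 with taurine, and its libraries overlapped.

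The 3 processed copies that carry no -ps name, Rps4l, Rpl6l and Rps12l1, are annotated as pseudogenes and had few reads. Rps4l had 64.2, 98.2 and 94.7 with R837 and 163, 126 and 208 with taurine. Its groups did not overlap and its log2 change of 0.94 ± 0.27 was the largest of the 82, but it did not pass (adjusted p = 0.0744). Rpl6l had 107, 129 and 115 and 164, 206 and 212, also without overlap (log2 change 0.72 ± 0.196, adjusted p = 0.0641). Rps12l1 had 50, 34.7 and 57.3 and 71.7, 54.3 and 78.5, which overlapped (log2 change 0.53 ± 0.319, adjusted p = 0.355). Compared with Rps4x, Rpl6 and Rps12, which they resemble, these copies stood at under 1% of the level, so a small share of misplaced reads would weigh on them. Of the copies known from other tissues, Rpl10l and Rpl39l had 0 reads in every library, which allows up to 3 reads each, and Rpl3l, the muscle form of Rpl3, had 0 to 10 reads per library.

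Copies marked -ps had a similar median change, at a much lower level, and a share of calls near that of all tested genes. Of 94 such rows tested, 4 were higher (4.26%, against 3.75% of all tested genes) and 0 lower, with a median log2 change of 0.40. Their median level was 43.9 normalized counts, against 11336 for the 82 genes. Their sum was 1.63% to 1.77% of the 82 genes' sum with R837 and 1.77% to 1.90% with taurine. For 22 of the 82 genes -ps rows held more than 1% of the gene's level. Exons of 39 of the 82 genes overlap another gene, Rps27a, Rpl22l1 and Rpl28 among them, with small nucleolar RNA genes in 17 cases. Of these 39, 25 were called with a median of 0.34, and of the 43 without overlap 32 were called with a median of 0.37.

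Both subunits rose by similar amounts. Of the 49 large subunit genes 36 were higher, with a median log2 change of 0.35, and of the 33 small subunit genes 21 were higher, with a median of 0.37, against 3.75% of all tested genes higher. All libraries with taurine lay above all with R837 for 44 large and 28 small subunit genes, against 14.6% of tested genes. The summed count of the large subunit over that of the small was 1.52, 1.48 and 1.56 with R837 and 1.54, 1.55 and 1.52 with taurine. The values with taurine fell within the range of those without, and the mean ratio was 1.52 ± 0.0368 (SD, n = 3) and 1.54 ± 0.0116. On the log2 scale the ratio differed by 0.014, less than the spread between libraries, and its sign turned in some of the alternatives. The large subunit took 1.72% ± 0.0455 of the normalized counts with R837 and 2.10% ± 0.134 with taurine, and the small subunit 1.13% ± 0.00569 and 1.37% ± 0.0962.

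Levels per kilobase of annotated exon differed widely among the genes, over libraries of both groups. Rplp0 had the highest mean, at 37394 normalized counts per kilobase, followed by Rps15 with 27006, Rplp1 with 25041, Rpl19 with 22847 and Rps6 with 22765. The median over the 82 genes was 6526, and Rpl22l1 had the lowest protein-coding level, at 340.4. Annotated exon length counts every exon ever annotated, 6270 nucleotides for Rps15a, so the level per kilobase of such genes may be understated. Between libraries of a group the median coefficient of variation of the 82 genes was 4.74% with R837 and 6.91% with taurine. Over all tested genes it was 13.6% and 12.8%. The comparison was not matched for level: the median normalized count was 11336 for the 82 genes and 437 for all tested genes.

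Other groups of the translation machinery had medians nearer to 0, a difference that was not tested. Elongation factors and other known TOP transcripts are controlled like ribosomal protein mRNAs at the level of translation. Of 17 such genes 0 were higher and 1 was lower by limma, against 3.75% and 2.66% of all tested genes. An unadjusted p under 0.05 was reached by 5, as by 3622 of all 15265 tested genes, and the median log2 change was 0.027. Eef1a1, which brings tRNA to the ribosome, went from 160910 ± 6468 to 174780 ± 9648 (log2 change 0.12, adjusted p = 0.253). Tpt1, one of the most abundant TOP mRNAs, went from 47732 ± 7694 to 60763 ± 3377 (log2 change 0.36 ± 0.106, adjusted p = 0.0791). Eif3a, a scaffold of initiation factor 3, fell from 19746 ± 2324 to 14820 ± 586 (log2 change -0.41 ± 0.09, adjusted p = 0.0349). edgeR also called 0 of the 17 higher and 1 lower. After removal of length and GC trends 1 of the 17 was higher and 0 were lower: Eef1d passed (log2 change 0.39, adjusted p = 0.0396) and Eif3a did not (-0.25, adjusted p = 0.0582). With the ribosomal protein reads kept out of the totals, 0 were higher and 2 lower.

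Counts of the next lists stand beside 3.75% of all tested genes higher and 2.66% lower. Whether a list differs from those shares was not tested. In the mTOR list of 12 genes 1 was higher and 0 were lower, with a median of -0.09. Eif4ebp1, the translation repressor that mTOR inactivates, rose from 447 ± 63.4 to 732 ± 46.1 (log2 change 0.72 ± 0.137, adjusted p = 0.0219). Rps6kb1, the kinase of Rps6, had a log2 change of -0.60 ± 0.22 (adjusted p = 0.138). Of 38 genes for ribosome assembly 1 was higher and 1 lower, with a median of -0.022. Eif6, which keeps free large subunits from joining, rose from 2404 ± 40.4 to 3205 ± 124 (adjusted p = 0.0189), and Utp20, of the small subunit processome, fell from 1131 ± 183 to 686 ± 27.9 (adjusted p = 0.0209). RNA polymerase I, which makes ribosomal RNA, and its factors had 0 of 14 genes called by limma or edgeR and a median of 0.020. Of the 14, 3 had an unadjusted p under 0.05, as did 3622 of all 15265 tested genes. Mitochondrial ribosomal proteins had 2 of 79 genes higher and 0 lower, with a median of 0.09, and initiation factors 2 of 55 higher and 3 lower, with a median of 0.05. After removal of length and GC trends the initiation factors had 3 higher and 1 lower, and the mitochondrial ribosomal proteins 1 higher and 0 lower. Of all tested genes 4.32% were then higher and 1.92% lower.

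**Figure D3:**
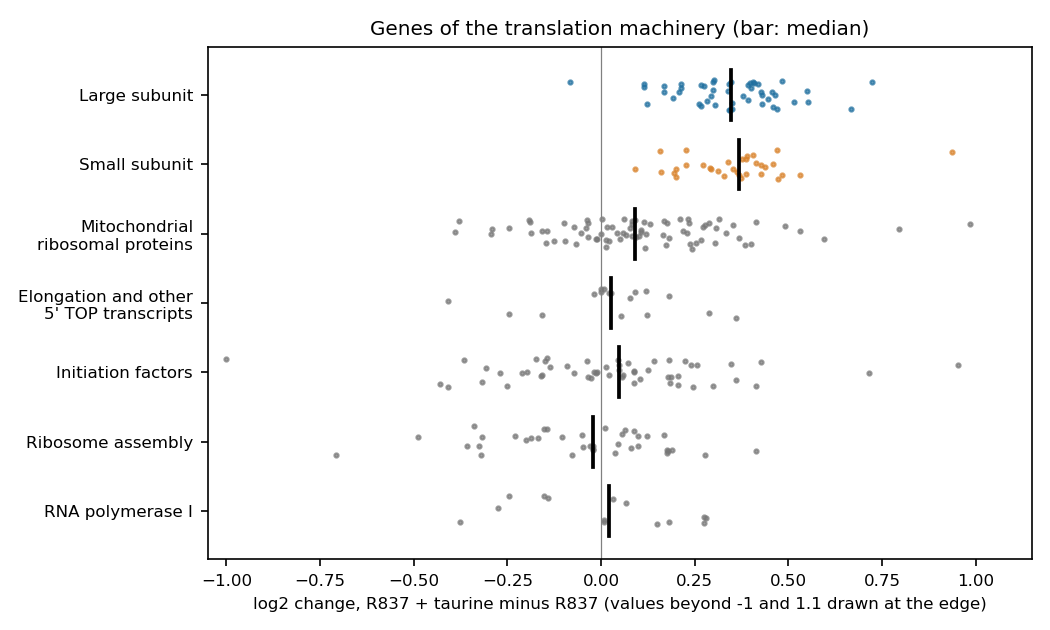
The plot by group of the translation machinery gives the log2 change (R837 with taurine minus R837) of each gene, 1 point per gene, with the median of each group as a bar and values beyond the axis drawn at its edge. The medians are 0.35 for the large and 0.37 for the small subunit, against 0.09 for mitochondrial ribosomal proteins and values within 0.05 of 0 for the other groups.

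Changes over the whole table were related to exon length, and ribosomal protein genes are short. The Spearman correlation across tested genes between a library's deviation and exon length was 0.108, 0.147 and 0.0443 in the R837 libraries and -0.101, -0.131 and -0.203 with taurine, so it separated the groups. Median exon length was 1776 nucleotides for the 82 genes and 3707 for all tested genes. Among the 82 genes the log2 change had a Spearman correlation of -0.40 with exon length and 0.42 with GC content, across genes that share the same 6 libraries. Once each library was corrected by a smooth curve for exon length and GC, these values were 0.024 and -0.13. The genes called were then 53, of which 52 were among the 57, against 4.32% of tested genes that were higher, and 0 were lower. The median log2 change of the 82 genes was 0.31, against 0.014 over all tested genes. Rpl14, Rpl34, Rpl38 and Rps27 were among those no longer called, and Rps3 was added. The part of exon length in these changes was not tested further.

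**Figure D4:**
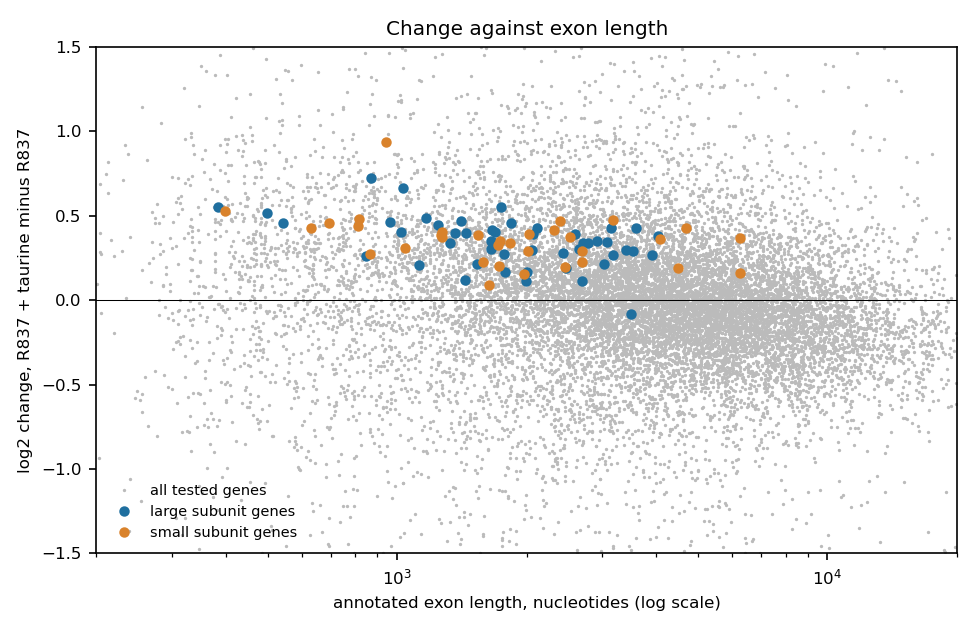
The plot of change against exon length gives the log2 change (R837 with taurine minus R837) on the vertical axis and annotated exon length in nucleotides on a log scale on the horizontal axis. Grey points are all tested genes within the axes, and large subunit genes are blue and small subunit genes orange. The 82 genes lie mostly to the left of the grey mass, at a median of 1776 against 3707 nucleotides, and all but Rpl7l1 lie above 0.

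Promoter sequence was found in the RefSeq table for 59 of the 82 genes. CTTTCC was present within 25 bases of the start, on the transcript strand, in 10 of the 59 (16.9%) and in 2.92% of all 27025 genes of the table. CTCTTT was present there in 9 (15.3%) and in 2.25% of all genes, and either run in 15 (25.4%) and 4.81%. No other pyrimidine run was searched for, so a gene without either may still start with a TOP motif. CCGGAAG on either strand was present in the whole 300-base window of 24 genes (40.7%) and in 9.93% of all genes. The median log2 change was 0.40 with CTTTCC and 0.35 without it, 0.37 with CTCTTT and 0.35 without, and 0.40 with CCGGAAG and 0.34 without. These differences were not tested. Of the genes shown by sequence, Rpl28, with both runs, had 10027, 10010 and 11599 with R837 and 13186, 14926 and 15272 with taurine (log2 change 0.46 ± 0.0858, adjusted p = 0.0206). Rpl38, with CTTTCC and CCGGAAG, had 3126, 3389 and 3789.7 and 4509, 4457 and 5188 (log2 change 0.46 ± 0.0984, adjusted p = 0.0321). Both had non-overlapping groups, as did Rpl24, which holds neither run.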

How the data were processed

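The deposited files give 1 signal value per gene and library, a normalized count per the file headers. All values (100%) were whole reads, to within 0.001 of a read, divided by 1 size factor per library (0.942 to 1.06). The submitters' processing notes name HISAT2, StringTie, mm8 and mm10 without a role or version. Which tool counted and normalized the reads, and with which strand setting, is not given in the sources used here. Coordinates matched GENCODE M21 (mm10) for 95.2% of 52403 shared identifiers, so they are taken as mm10. Exon length, GC content and overlaps came from that release, and 27 symbols that stood as day numbers were restored from their identifiers.

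A gene was tested where 3 or more of the 6 libraries had a normalized count of 10 or above. The test was limma 3.58.1 (R 4.3.3) on log2(normalized count + 1) (group term, abundance trend, two-sided, Benjamini-Hochberg over 15265 genes, threshold 0.05), and changes are on that scale. The scripts were tested on simulated data. Alternatives used edgeR 4.0.16 and DESeq2 1.42.0 on recovered reads, other pseudocounts, filters and scalings, no abundance trend, removal of length and GC trends, a replicate block, addition of -ps rows, and each library left out. Removal of trends together with the block, and restriction to genes without exon overlap, were chosen after seeing the data. No 2 libraries of a group agreed within sampling noise. Groups came from the sample titles.

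The genes, gene lists and tests were chosen with earlier results of these data known. Genes were named if they had the 6 smallest p in each subunit and direction among called genes, the 3 highest or lowest changes or the 3 highest levels per kilobase of a subunit, or a known special role or second copy, with up to 3 genes per other list. Promoters were credited to RefSeq (GRCm38.p6). A few genes of the set are not reported here by name.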

Additional observations from a re-analysis of the deposited data

How the results depend on the processing

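Directions held more firmly than calls. The main fit called 979 genes in all and 57 ribosomal protein genes, 36 of the large and 21 of the small subunit. Without a filter on low values these counts were 547 of 23406 tested genes (1.42% higher), 26, 15 and 11. Without the abundance trend in the prior variance they were 4, 0, 0 and 0. In that fit 63 of the 82 genes had an unadjusted p under 0.05, as did 3217 of all 15265 tested genes. The lowest adjusted p among the 82 was 0.0935. DESeq2 called 1842 of the 11150 genes to which it gave an adjusted p (8.38% higher, 8.14% lower) and 64 of the 82. Quantile normalization called 37 of the 82 and 22 large subunit genes, against 3.14% of all tested genes higher. It moved the small subunit median log2 change from 0.37 to 0.30. Among genes without exon overlap, 32 ribosomal protein and 17 large subunit genes were called. Fewer genes were tested there, 9177, of which 4.37% were higher. Leaving out 1 library at a time gave 134 to 1477 genes in all, 2 to 54 ribosomal protein genes, 2 to 34 of the large and 0 to 20 of the small subunit. Over those fits the summed level changed by 0.28 to 0.37 (log2), against 0.33 with all libraries, and the large minus small difference lay between -0.0027 and 0.032. The cause of these shifts was not tested. No pairing by replicate number was seen: deviations of same-numbered libraries correlated at -0.0026, -0.0068 and -0.043. Whether same-numbered libraries share a mouse or culture is not stated, and these values cannot decide it. A replicate block gave 615 genes in all (2.39% of tested genes higher) and 40 of the 82, all 40 among the 57. With the length and GC trends removed as well, it gave 589 in all. Of the values of named genes under the alternatives, 623 kept direction and call, 147 lost the call, 3 gained it and 1 changed sign: the log2 change of Rps4x was -0.00358 under quantile normalization. Depth limits the 3 pseudogene copies most, and intervals from reads cover counting error only.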

Other observations

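The 4 X-linked genes of the set, grouped here after their values were seen, had 1 call. Over the set 57 of 82 genes were higher, and 3.75% of all tested genes. Rpl10 rose by 0.30 (adjusted p = 0.0439) and Rpl36a had a log2 change of 0.30 (adjusted p = 0.0702), both by limma. Rpl39 and Rps4x had changes of 0.12 and 0.089, near the low end of the 82 genes. Whether X-linked genes differ from the others was not tested. The most abundant genes did not change the most: across the 82 genes, which share the same 6 libraries, the log2 change had a Spearman correlation of -0.16 with the mean level.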
